A study of Mus musculus with 6 samples.

Results

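The enzymes by which the kidney makes glucose and feeds the carbon of glutamine into it were measured as transcripts in newborn mouse kidney. The group held 9 genes: Pck1, Pck2, Pcx, Fbp1, G6pc, G6pc3, Slc37a4, Glud1 and Got1. They were matched to the arrays by name, through the RefSeq accession that each probe carries. All 9 were present, on 11 of 39429 probes, and all 9 were among the 21207 genes that were bright enough to test. Total RNA came from kidneys of male neonates collected 6 hours after birth, 3 labelled USP10 KO (KO below) and 3 labelled USP10 WT (WT below), and each was hybridised in Cy3 to 1 single-colour Agilent array. Usp10 codes for an enzyme that removes ubiquitin from proteins. The neonates are independent according to the design text, and the comparison asks which transcripts differ between the genotypes. The strain, the part of the gene that was removed, and whether it was removed in the whole body are not given in the sources used here.

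Gluconeogenesis builds glucose from lactate, glycerol and amino acids. In the kidney it takes place in the proximal tubule, where glutamine is a main source of carbon: its nitrogen is released as ammonia, in part by glutamate dehydrogenase, and the carbon leaves the citric acid cycle as malate or oxaloacetate. Phosphoenolpyruvate carboxykinase then commits it to glucose, fructose-1,6-bisphosphatase and glucose-6-phosphatase carry out the later irreversible steps, and glucose leaves the cell. At birth the supply of glucose through the placenta ends, and liver and kidney switch these genes on under glucagon, catecholamines and glucocorticoids acting through cyclic AMP, CREB, C/EBP factors and the glucocorticoid receptor.

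The stretch of 250 bases before the transcription start was read for all 9 genes from RefSeq on build GRCm38.p6 and searched on both strands for TGACGTCA (the cyclic AMP response element), its variant TTACGTCA, AGAACA (a half-site of the glucocorticoid response element), TTGCGCAA (a C/EBP site) and TGTTTAC (a FOXO site). The first pair share the core ACGTCA, and no motif contains another. Of 32851 such windows of annotated genes, 1.55% held TGACGTCA, 0.447% held TTACGTCA, 16.1% held AGAACA, 0.164% held TTGCGCAA and 3.17% held TGTTTAC. Among the 9 genes there were 2 matches: TTACGTCA lay 93 to 86 bases before the start of Pck1, and AGAACA lay 190 to 185 bases before the start of G6pc3. The windows of Pck1, the gene best known for hormonal control at birth, and of Got1 and Slc37a4, the genes with the largest positive differences below, are printed 5′ to 3′ in the direction of transcription, with the match in capitals. They lie at chr2:173152823-173153072 (plus strand), chr19:43524606-43524855 (minus strand) and chr9:44396696-44396945 (plus strand). For Slc37a4, which has 3 annotated start sites, the window of the first is shown.
Pck1: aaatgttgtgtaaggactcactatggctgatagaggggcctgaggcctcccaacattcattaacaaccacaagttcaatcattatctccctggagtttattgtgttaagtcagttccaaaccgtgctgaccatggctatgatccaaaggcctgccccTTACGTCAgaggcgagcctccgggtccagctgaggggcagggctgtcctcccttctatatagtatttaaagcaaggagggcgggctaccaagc
Got1: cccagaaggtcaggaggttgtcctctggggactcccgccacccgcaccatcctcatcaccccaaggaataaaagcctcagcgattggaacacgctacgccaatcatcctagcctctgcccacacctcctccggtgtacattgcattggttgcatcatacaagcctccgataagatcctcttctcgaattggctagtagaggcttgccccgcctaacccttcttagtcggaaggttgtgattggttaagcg
Slc37a4: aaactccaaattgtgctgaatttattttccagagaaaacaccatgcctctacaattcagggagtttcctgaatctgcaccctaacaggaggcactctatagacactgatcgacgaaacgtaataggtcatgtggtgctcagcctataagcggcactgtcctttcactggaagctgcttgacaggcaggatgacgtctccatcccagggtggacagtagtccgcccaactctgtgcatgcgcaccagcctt
These letters are the reference sequence, and a match is not evidence of binding.

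Of 43020 spots other than controls, 64.4% to 73.9% gave a signal well above background, and saturation did not occur. With 3 arrays a group, precision is limited by their number. By scan time the arrays fell into 2 sets, KO replicates 1 and 2 with WT replicates 2 and 3, and KO replicate 3 with WT replicate 1. The deviations of this last pair from their group means correlated at 0.89 over genes, so values with scan time as a block are given beside the main ones where the text turns on them. The labels were not borne out in full. The probe for Usp10 was 0.49 ± 0.16 (SE) higher in log2 on the arrays labelled KO (limma adjusted p = 0.416). It may lie outside the removed part, so KO and WT here mean the arrays so labelled. All animals are labelled male, but WT replicate 2 lacked the signal of Y-linked transcripts that the other 5 arrays gave. Xist was detected by each of its probes on WT replicate 2, and by only 1 of them on WT replicate 1. Differences against WT replicate 3 alone are therefore given for each of the 9 enzymes. All 33 markers of the proximal tubule were well above background on every array. KO replicate 2 stood apart: 23 of those 33 markers were lowest there. Their median deviation from the gene's own mean was -0.51 in log2 on that array and between -0.0042 and 0.28 on the others, and their summed level (linear, in multiples of the 75th percentile) was 214 against 233 to 274. Miox, an enzyme of inositol breakdown in the proximal tubule, stood at 0.12 there and between 3.02 and 3.98 on the other arrays. The sodium-glucose transporter gene Slc5a2 stood at -3.23 against 0.03 to 0.90. Other markers of the list went the other way, and 4 of the 33 were highest on KO replicate 2. Hnf4a was 1 of these, at 5.26 against 4.40 to 4.98 on the other arrays. In whole kidney RNA, fewer cells of a type and less RNA per cell cannot be told apart.

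Levels are log2 intensities relative to each array's 75th percentile, so that 0 is the brightness of the spot at that percentile. Levels of different probes are not compared, since probes differ in brightness for the same amount of RNA. Differences are KO minus WT on that log2 scale, and p-values are limma's, adjusted over all 21207 genes.

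None of the 9 enzymes passed an adjusted p of 0.05 in limma, where 17 genes, or 0.0802% of all tested, did so (0.0189% in the higher direction). The 2 with an unadjusted p under 0.05 were Got1 and Slc37a4, both higher on KO, in a comparison where 10.4% of all genes reached that level and 6.15% did so in the higher direction. For 3 of the 9 the groups did not overlap (Got1 and Slc37a4 higher, and Pck2 lower, though it was not above background on 1 of the KO arrays), against 18.2% of all genes, 10.1% higher and 8.1% lower. The median difference of the 9 was 0.04 and that of all genes 0.03. The 9 genes were thus spread on both sides of 0, with 5 positive and 4 negative differences between -0.49 and 0.99.

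**Figure D1:**
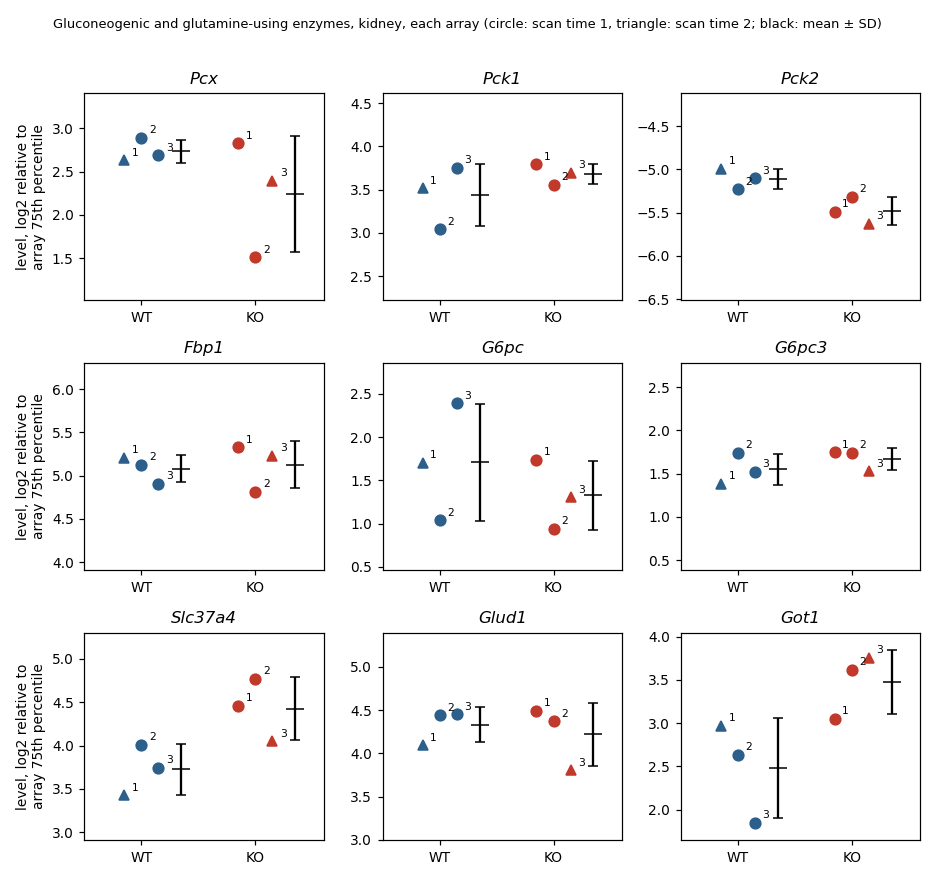
Level of each of the 9 enzymes on every array, as log2 intensity relative to the array's 75th percentile, with WT in blue and KO in red. Circles are arrays of the first scan time and triangles those of the second, small numbers are replicates, and black marks are means ± SD of 3 arrays. The KO points lie above all WT points for Slc37a4 and Got1 and below them for Pck2, and overlap them for the other 6 genes.

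Carbon from pyruvate enters the pathway through Pcx, pyruvate carboxylase, which makes oxaloacetate from pyruvate in the mitochondrion. Its level on KO replicates 1 to 3 was 2.82, 1.51 and 2.39, and on WT replicates 1 to 3 it was 2.63, 2.89 and 2.69. The WT arrays lay close together, and KO replicate 2 was low while KO replicate 1 lay inside the WT range. The difference was -0.49 ± 0.33 (SE; 95% interval -1.25 to 0.27; limma adjusted p = 0.581), and without KO replicate 2 it was -0.13. That is the array on which most proximal tubule markers were lowest, and the part of this in the Pcx value was not tested beyond leaving the array out.

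Pck1 encodes the cytosolic phosphoenolpyruvate carboxykinase, the classic rate-controlling enzyme of gluconeogenesis. It stood at 3.79, 3.56 and 3.69 on the KO arrays and at 3.52, 3.04 and 3.75 on the WT arrays. The KO arrays were tightly grouped, and the groups overlapped because WT replicate 3 was as high as they were while WT replicate 2 was low. The difference of 0.25 ± 0.22 (SE; 95% interval -0.26 to 0.75) did not pass (limma adjusted p = 0.677). It was 0.05 without WT replicate 2, 0.40 without WT replicate 3 and -0.07 against WT replicate 3 alone.

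Pck2, the mitochondrial form of the enzyme, was dim in these kidneys. Its single probe is printed in 10 spots, of which 8, 8 and 0 were well above background on KO replicates 1 to 3, and 7, 10 and 10 on WT replicates 1 to 3. The probe was thus not well above background on KO replicate 3. The measured levels were -5.49, -5.32 and -5.63 on KO and -4.99, -5.23 and -5.10 on WT, with all KO values below all WT values. Since the probe entered the test through the WT arrays, on which it was brighter, its lower level on KO is a description only. The difference of -0.37 ± 0.17 (SE; 95% interval -0.76 to 0.02) did not pass (limma adjusted p = 0.482, and 0.274 with scan time as a block). It was -0.24 within the first scan time, whose arrays all measured it, and -0.30 without KO replicate 3. With normexp background correction before scaling it was 0.29, with a median over all genes of 0.14 under that correction.

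Fbp1, fructose-1,6-bisphosphatase of liver and kidney, was the enzyme with the smallest difference. It stood at 5.33, 4.82 and 5.23 on KO and at 5.21, 5.13 and 4.90 on WT, and the groups overlapped with KO replicate 2 lowest. The difference was 0.04 ± 0.20 (SE; 95% interval -0.42 to 0.51; limma adjusted p = 0.941). Its sign turned under quantile normalisation and under both normexp settings, so the gene has no direction here. Without KO replicate 2 it was 0.20.

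**Figure D2:**
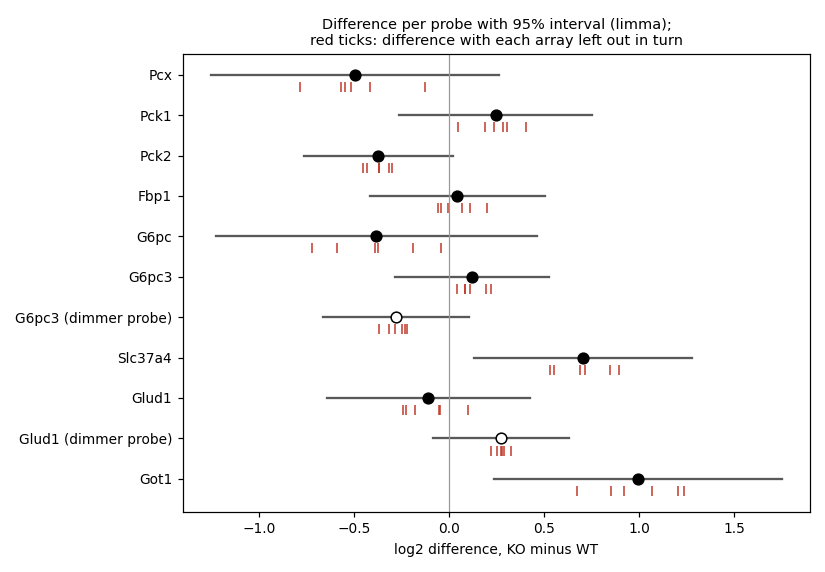
KO minus WT difference in log2 for each probe of the 9 enzymes (points) with limma's 95% interval (bars), and the difference with each array left out in turn (red ticks). Filled points are the probes used for the gene and open points the dimmer second probes of G6pc3 and Glud1, whose differences have the opposite sign; the intervals of Slc37a4 and Got1 lie above 0 before adjustment for the number of genes.

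The last step, release of free glucose, needs a phosphatase in the endoplasmic reticulum and the transporter that brings glucose 6-phosphate to it. G6pc encodes the phosphatase of liver and kidney. Its levels were widely spread in both groups, at 1.74, 0.94 and 1.31 on KO and at 1.70, 1.04 and 2.39 on WT. WT replicate 3 was highest and KO replicate 2 lowest, with WT replicate 2 close to the latter. The difference of -0.38 ± 0.36 (SE; 95% interval -1.23 to 0.47; limma adjusted p = 0.697) moved with single arrays. It was -0.04 without WT replicate 3, -0.19 without KO replicate 2, -0.59 without KO replicate 1 and -0.72 without WT replicate 2. Against WT replicate 3 alone it was -1.06.

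G6pc3, the phosphatase form found in most tissues, was read by a pair of probes for the same accession. The brighter one gave 1.74, 1.74 and 1.53 on KO and 1.38, 1.74 and 1.52 on WT, a difference of 0.12 ± 0.17 (SE) with overlapping groups. The dimmer one gave -1.04, -1.15 and -0.97 on KO and -0.72, -0.95 and -0.66 on WT, all KO values below all WT values, a difference of -0.28 ± 0.16 (SE). Neither passed in the fit of each probe on its own (limma p adjusted over 25809 probes, 0.799 and 0.562). The probes disagree in sign, and no direction is given for the gene.

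Slc37a4 encodes the transporter of glucose 6-phosphate into the endoplasmic reticulum, without which G6pc has no substrate. It stood at 4.46, 4.77 and 4.05 on KO and at 3.42, 4.01 and 3.74 on WT. Every KO array was above every WT array, although KO replicate 3 and WT replicate 2 were only just apart. The difference was 0.70 ± 0.25 (SE; 95% interval 0.13 to 1.28), or 1.63-fold, with an unadjusted p of 0.0225 in limma that did not survive adjustment (adjusted p = 0.431, and 0.153 with scan time as a block). The exact permutation test over the 6 arrays gave a two-sided p of 0.1, the smallest it can give. The difference was 0.74 within the first scan time and 0.63 within the second, stayed between 0.53 and 0.89 with any array left out, and was 0.69 against WT replicate 3 alone. Its unadjusted limma p stayed under 0.05 without KO replicate 3 (0.00777) or WT replicate 2 (0.0204), and was 0.0535 to 0.0755 without any of the other arrays. Slc37a4 thus differed from G6pc, which it serves, in the sign of its difference. The difference between these genes was not itself tested.

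The route from glutamine was represented by Glud1 and Got1. Glud1, glutamate dehydrogenase, turns glutamate into 2-oxoglutarate and ammonia. Its brighter probe stood at 4.49, 4.37 and 3.81 on KO and at 4.09, 4.44 and 4.45 on WT, with KO replicate 3 lowest, and gave -0.11 ± 0.23 (SE; 95% interval -0.64 to 0.43). Its dimmer probe stood at 3.95, 3.98 and 4.02 on KO and at 3.81, 3.72 and 3.60 on WT, every KO array above every WT array, and gave 0.27 ± 0.15 (SE). Neither passed in the fit over probes (limma adjusted p = 0.874 and 0.546). These probes also disagree in sign. Without KO replicate 3 the brighter probe gave 0.10.

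Got1, the cytosolic aspartate aminotransferase, links glutamate and oxaloacetate and serves the malate-aspartate shuttle. It had the largest difference of the 9. It stood at 3.05, 3.62 and 3.76 on KO and at 2.97, 2.63 and 1.85 on WT. All KO arrays were above all WT arrays, but KO replicate 1 and WT replicate 1 were nearly level and WT replicate 3 was far below the rest. The difference was 0.99 ± 0.33 (SE; 95% interval 0.23 to 1.76), or 1.99-fold, with an unadjusted p of 0.0173 in limma and an adjusted p of 0.416 (0.196 with scan time as a block). The exact two-sided permutation p was 0.1. It was 1.1 within the first scan time and 0.79 within the second. Leaving out single arrays gave 0.68 (without WT replicate 3) to 1.24 (without WT replicate 1), and against WT replicate 3 alone it was 1.63. With single arrays left out its unadjusted limma p was 0.00522 to 0.0479.

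The mitochondrial partner Got2 did not share the sign of Got1. It stood at 2.00, 1.70 and 2.11 on KO and at 2.39, 2.04 and 2.47 on WT, a difference of -0.37 ± 0.20 (SE; limma adjusted p = 0.527), and was chosen for mention after its values were seen. The genes whose values over the 6 arrays lay nearest to those of Got1, by the root mean square distance of centred levels among 2184 genes with a difference of at least 0.5 times its own, were Nt5dc3 (0.11), Cpsf4l (0.11), Sort1 (0.12), Gabrp (0.12) and Acsl4 (0.12). Picked in this way, their differences were bound to be near that of Got1. They lay between 0.83 and 1.06, and none passed in limma.

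Against WT replicate 3 alone the difference of Pcx was -0.44, that of Pck2 -0.38 and that of Fbp1 0.22. The brighter and dimmer probes of G6pc3 gave 0.15 and -0.39 against it, and those of Glud1 -0.23 and 0.38.

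The array with the extreme value was not the same for each enzyme. Pcx, Fbp1 and G6pc were lowest on KO replicate 2, Pck2 and Glud1 on KO replicate 3, Slc37a4 and G6pc3 on WT replicate 1, Pck1 on WT replicate 2 and Got1 on WT replicate 3. Over the 6 arrays the range of a single enzyme was 0.36 for G6pc3 and 1.91 for Got1. Slc37a4 was highest on KO replicate 2, on which most of the proximal tubule markers were lowest. Markers of hepatocytes, which also express these enzymes, were checked. Of 22 listed, 14 were above background on all 6 arrays, while Apoa1 was on none, Apob on 1 and Cps1 on 2. The 17 measured had a median difference of -0.60 (0.13 with normexp correction scaled on the 75th percentile). Of these 17, 11 were negative, where 9913 of all 21207 genes were, and none passed in limma. With no overlap of the groups 5 were lower and 3 higher, against 8.1% and 10.1% of all genes. The plasma protein gene Ahsg stood at -3.97, -0.70 and -1.94 on KO and at -0.23, -0.42 and 0.06 on WT, and Alb, albumin, at -5.11, -1.79 and -3.20 on KO and at -1.88, -1.92 and -1.53 on WT. Other markers of the list went the other way: Fga, Serpina1a and Afp were higher on every KO array, by 1.14, 0.42 and 0.41. Serpinc1 was above background on all WT arrays and on no KO array. Like F2 and Hpx, it entered the test through the WT arrays, so the lower levels of these genes are a description only. All of them count toward the median, and Serpinc1 and F2 are among the 5 lower with no overlap. The summed linear level of the 17, to which the brightest genes give most, was 35.6, 41.5 and 40.2 on KO and 36.6, 37.6 and 32.1 on WT. The part of these cells in the enzyme values was not tested.

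**Figure D3:**
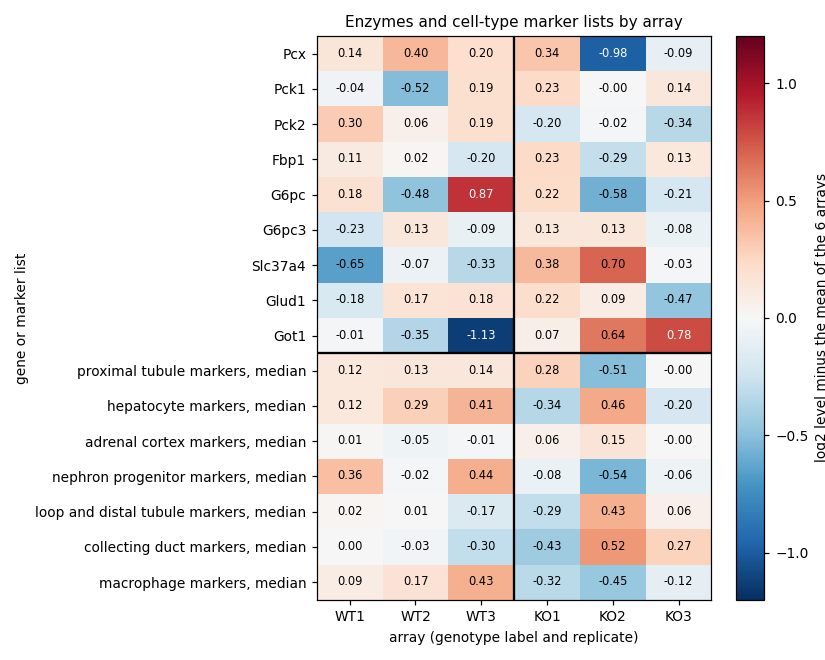
Deviation of each enzyme from its own mean over the 6 arrays, in log2 (colour and printed value), with the median deviation of 7 lists of cell-type markers below the line and KO arrays to the right of the vertical line. KO replicate 2 is at -0.98 for Pcx and -0.51 for the proximal tubule markers, but at 0.70 for Slc37a4; WT replicate 3 is at 0.87 for G6pc and -1.13 for Got1.

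The genes around the 9 enzymes were described from lists chosen by function. Enzymes of glutamine breakdown and synthesis (13 of 14 measured, Got1 and Glud1 among them) had a median difference of -0.11, and none passed. Psat1, the phosphoserine aminotransferase that uses glutamate, was 0.49 higher. Without KO replicate 2 its difference was 0.31. Aldh18a1, which makes proline and ornithine precursors from glutamate, was -0.61, and -0.37 without KO replicate 2. Its difference was -0.04 with normexp correction scaled on the 75th percentile. Gls2, an enzyme of glutamine breakdown best known from liver, was -0.41, but was not above background on KO replicate 3 and entered through the WT arrays. Transporters of glutamine and glutamate (18 of 19 measured) had a median of -0.14 and none passed. Among them Slc38a3, which takes up glutamine across the basolateral membrane of the proximal tubule, was 0.37, and Slc1a1, Slc3a1 and Slc7a7 were -0.43, -0.53 and -0.39. The values of Slc3a1, a marker of the proximal tubule as well, were 1.61, 0.50 and 1.38 on KO, and without KO replicate 2 its difference was -0.20. That of Slc7a7 was -0.21 without the same array and -0.61 without KO replicate 1, and that of Slc38a3 was 0.15 without WT replicate 1.

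Mitochondrial carriers and malate dehydrogenases that move the carbon to the cytosol (9 of 11 measured) had a median of 0.21, and none passed the threshold. Of the 9 differences 8 were positive, where 11294 of all 21207 genes were. The aspartate-glutamate carrier Slc25a12 was 0.43 and its relative Slc25a13 -0.36. Mpc1, a subunit of the pyruvate carrier, was 0.44 and Mdh2, the mitochondrial malate dehydrogenase, 0.36. The median of the list was 0.11 without WT replicate 3, with 6 of 9 positive, 0.38 without WT replicate 1 and 0.63 against WT replicate 3 alone. Without WT replicate 3 Slc25a13 was -0.21, Mpc1 0.29 and Mdh2 0.23, and without WT replicate 2 Slc25a13 was -0.60.

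The steps that gluconeogenesis shares with glycolysis (11 of 11 measured) held 3 genes with an unadjusted p under 0.05, all lower on KO, where 4.23% of all genes were lower at that level. Tpi1, triosephosphate isomerase, stood at 2.84, 2.30 and 2.60 on KO and at 3.37, 3.12 and 3.64 on WT, with no overlap, a difference of -0.80 ± 0.22 (SE; limma adjusted p = 0.353). Pgam1 and Pgk1 were -0.61 and -0.50, and Pgam1 was -0.38 without KO replicate 2. The list's median was -0.07. None of the 11 passed after adjustment over all genes.

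The steps that oppose gluconeogenesis and the enzymes that regulate them in either direction (21 of 22 measured: hexokinases, phosphofructokinases, pyruvate kinases, pyruvate dehydrogenase and the kinases that switch it off) had a median of -0.04, and none passed. Hk2, hexokinase 2, stood apart from the rest at 0.74, 1.82 and 1.29 on KO and -0.54, -0.51 and -0.70 on WT. Its difference of 1.87 ± 0.27 (SE) did not pass (limma adjusted p = 0.0821). It did after normexp correction scaled on the 75th percentile (adjusted p = 0.0431) and under a variance model with intensity trend (0.0464). It did not with any single array left out (0.0923 to 0.410), with the replicate block (0.241) or with no filter on dim probes (0.292). Pfkfb3, which raises fructose 2,6-bisphosphate, was 0.60, and Pdk4, which switches pyruvate dehydrogenase off during fasting, was 0.50.

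Regulators of gluconeogenesis (41 of 45 measured: hormone receptors, transcription factors, coactivators and their targets) were the one list around the pathway with genes past the threshold. Cebpd and Lpin1 rose. Cebpd, a C/EBP transcription factor, stood at 3.83, 4.26 and 3.93 on KO and at 2.22, 2.23 and 2.10 on WT, with 1.82 ± 0.18 (SE; limma adjusted p = 0.0444). Lpin1, a phosphatidate phosphatase and coactivator induced by glucocorticoids and fasting, stood at -1.50, -1.84 and -1.83 on KO and at -3.18, -3.25 and -3.12 on WT, with 1.46 ± 0.17 (SE; limma adjusted p = 0.0488). Both calls were near the threshold. That of Cebpd was lost without any single array other than KO replicate 3, with adjusted p between 0.0903 and 0.249, and that of Lpin1 without any single array (0.0591 to 0.28), with differences of 1.70 to 1.91 and 1.35 to 1.52. Of 22 alternatives in all, 11 ended the call of Cebpd and 15 that of Lpin1, and none turned the sign of either. Klf9, a factor induced by glucocorticoids, was 1.41 (limma adjusted p = 0.0632, and 0.0349 with scan time as a block). Its adjusted p was 0.0992 to 0.311 with single arrays left out and 0.289 with the replicate block. Fkbp5, a chaperone induced by the same hormones, was 1.43 (limma adjusted p = 0.0997).

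Of the 41 regulators, 16 had an unadjusted p under 0.05 in limma and all 16 were higher on KO, against 6.15% of all genes. With single arrays left out, 12 to 16 had one. The groups did not overlap for 20 of the 41, against 18.2% of all genes. Of these 17 were higher, against 10.1% of all genes, and 3 lower, against 8.1%. The median difference was 0.21, 0.09 without WT replicate 3, 0.39 without WT replicate 2 and 0.43 against WT replicate 3 alone. The list overlaps with responses to glucocorticoids that were known to be high in these data when it was chosen, so its direction is not independent evidence. Some of its members are known to act on the 9 enzymes and were added after their values were seen. Klf15, a factor that drives amino acid use and gluconeogenesis in fasting, stood at 2.64, 3.49 and 3.74 on KO and at 1.79, 1.27 and 0.63 on WT, a difference of 2.06 ± 0.38 (SE; limma adjusted p = 0.152). Like Got1, it was lowest on WT replicate 3 and highest on KO replicate 3. That was not particular to these genes. Lowest on WT replicate 3 were 17 of the 41 regulators and 5 of the 9 measured mitochondrial carriers and malate dehydrogenases. Highest on KO replicate 3 were 7 and 6 of them. A link between Klf15 and Got1 was not tested. Ppargc1a, the coactivator that switches on Pck1 and G6pc in fasting, was 0.75 ± 0.19 (SE; limma adjusted p = 0.331) and Cebpb 0.95 ± 0.19 (SE; 0.182). Hnf4a, the nuclear receptor that acts with it, was 0.46 and Foxo1 -0.26. The differences of Pck1 and G6pc given above, 0.25 and -0.38, thus stood beside positive differences of Ppargc1a, Cebpb and Hnf4a and a negative one of Foxo1. Foxo1 was lower on every KO array. None of these regulators passed after adjustment.

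**Figure D4:**
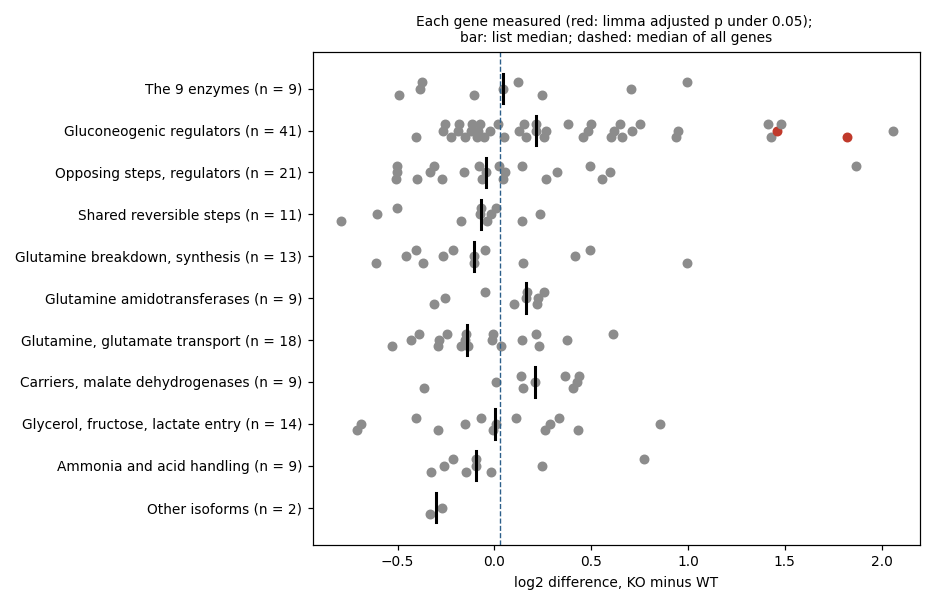
KO minus WT difference in log2 of every measured gene of the 9 enzymes and of 10 lists around them, with the list's median as a bar and the median of all genes as a dashed line. The regulators reach furthest to the right, up to 2.06, and hold the 2 genes past an adjusted p of 0.05 (red); the enzymes lie between -0.49 and 0.99.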

How the data were processed

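The authors deposited what Agilent Feature Extraction wrote for each array. Its version is 11.0.1.1 in the file headers but 9.1 in the submitters' processing notes, which was not resolved. The deposited processed intensity of each spot is linear and background-subtracted, per the file headers, and was not normalised between arrays. Groups came from the labels. Control spots and outlier-marked spots were left out, log2 was taken of the intensity that the authors deposited, values were centred on the array's 75th percentile, and repeated spots were averaged per probe. A probe was kept where most of its spots were well above background on every array of a group, and a gene was represented by its brightest probe. Names came from a RefSeq table of GRCm38.p6 by accession (27234 of 39429 probes, 20659 genes, 15185 of them tested). The array design names build mm9, so the table gave no probe coordinates, and the printed windows are RefSeq's own.

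The groups were compared in R 4.3.3 by limma 3.58.1 with lmFit and eBayes, two-sided, with p-values of 21207 genes adjusted by Benjamini-Hochberg and a threshold of 0.05. The fit was tested on simulated data. With 3 arrays against 3 the smallest exact two-sided permutation p is 0.1. Named were all members and probes, Usp10, up to 4 genes per list by smallest p and any past the threshold, and the 5 genes nearest to the member with the smallest p. Members and lists were chosen with earlier results of these data known. Alternatives were other scalings, normexp (offset 50, on median signals), filters, probe rules, variance models, blocks and leaving out arrays.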

Additional observations from a re-analysis of the deposited data

How the results depend on the processing

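None of the 9 enzymes passed under any alternative, with 1 to 3 at an unadjusted limma p under 0.05, and their median difference stayed between -0.07 and 0.13. Got1 (0.68 to 1.63) and Slc37a4 (0.53 to 0.89) kept their sign in all 22 alternatives, with lowest adjusted p of 0.196 and 0.153. The count of all genes past the threshold, 17 (4 higher, 13 lower), moved with the setting. It was 0 with normexp and quantile normalisation (2245 at an unadjusted p under 0.05), 0 with no filter on dim probes (2052), 0 against WT replicate 3 alone (2009), 1 with only probes above background on all 6 arrays, 8 with probes averaged per gene, 27 with every probe, 36 with array weights, 45 with an intensity trend and robust variance, 62 with scan time as a block and 81 at an adjusted p of 0.10. With single arrays left out it was 0 to 30 (0 except without KO replicate 3; 1072 to 2647 at an unadjusted p under 0.05). Normexp with the 75th percentile gave 24, of which 11 were higher, and moved the median of all genes from 0.03 to 0.14.

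Signs turned for the following. Fbp1 was -0.067 with quantile normalisation, -0.014 and -0.064 with normexp (75th percentile and quantile), and -0.058 to 0.20 with single arrays left out. With normexp and the 75th percentile Pck2 was 0.29, Gls2 0.29, G6pc2 0.19 and Atp6v1b1 0.0040. G6pc3 was -0.077 and Glud1 0.083 with the mean of probes, their dimmer probes were -0.28 and 0.27, and Glud1 ran from -0.24 to 0.10 with single arrays left out. Pck1 was -0.070 against WT replicate 3 alone. The cause was not tested.

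The replicate numbers did not pair the arrays: deviations from the group means correlated at -0.40, 0.48 and -0.60 over genes. KO replicate 3 and WT replicate 1, which share the second scan time, correlated at 0.89. With the replicate block 0 genes passed (1609 at an unadjusted p under 0.05) and 0 of the 9 enzymes did. With 3 arrays a group, differences like those of Got1 and Slc37a4 were not resolved after adjustment. Pck2 was not well above background on KO replicate 3, and its sign turned under a normexp setting. Whether its dim signal kept Pck2 from passing was not tested.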

Other observations

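Other routes of carbon into gluconeogenesis held no gene past the limma threshold. Of the genes for glycerol, fructose and lactate entry (14 of 14 measured, median 0.00), Tkfc, which handles the products of fructose breakdown, stood at -0.42, -1.54 and -0.58 on the KO arrays and at 0.06, -0.35 and -0.12 on the WT arrays. Gpd1, the cytosolic glycerol 3-phosphate dehydrogenase, stood at 2.84, 1.56 and 2.42 on KO and at 2.90, 3.07 and 2.92 on WT. Both were lower on every KO array, by -0.71 and -0.69, and both were lowest on KO replicate 2, without which the differences were -0.36 and -0.33. Slc16a1, a lactate carrier, was -0.40 (-0.0015 with normexp correction scaled on the 75th percentile), and Gk, glycerol kinase, 0.29.

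Of the enzymes that use the amide nitrogen of glutamine (9 of 9 measured, median 0.17) Gmps, GMP synthetase, was -0.31 with no overlap, and Pfas, Ppat and Ctps were 0.26, -0.26 and 0.22. Without WT replicate 3 Ppat was -0.15 and Ctps 0.14; without KO replicate 3 Pfas was 0.17 and Ctps 0.12. Of the genes for ammonia and acid handling (9 of 10 measured, median -0.10) Rhcg, the ammonia channel of the distal nephron and collecting duct, stood at 2.77, 4.18 and 3.65 on KO and at 2.90, 2.79 and 2.60 on WT, and Car4, Atp6v1b1 and Atp6v0a4 were -0.33, -0.26 and 0.25. KO replicate 2, on which Rhcg was highest, also held the highest median deviation of the collecting duct markers (0.52); the part of this in the Rhcg value was not tested, and without that array its difference was 0.45 and that of Atp6v0a4 0.04. The isoforms Fbp2 and G6pc2, known for muscle and pancreatic islet, were -0.33 and -0.27, and -0.18 and -0.13 without KO replicate 2. None of these genes passed.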
